A study of Mus musculus with 48 samples.

Results

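The 34 genes described here encode the enzymes and transporters of glycolysis and of the pentose phosphate pathway, together with the steps that carry pyruvate to lactate or into the mitochondria. They were taken by gene name from a fixed list of the pathway, and all 34 were found among the 54735 genes counted. Their RNA was measured by RNA sequencing in 24 libraries of sorted splenocytes from male Balb/c mice of 10 weeks, 4 WT mice and 4 Il1rl1-/- mice on the Balb/c background, with 4 libraries in each of 6 groups. Il1rl1 encodes the receptor for IL-33. From each mouse, 3 cell types were sorted on Ly6G, CD11b and F4/80: splenic monocytes (Ly6Glo CD11bhi F4/80-), precursors of red pulp macrophages (pre-RPMs, Ly6Glo CD11bhi F4/80lo) and red pulp macrophages (RPMs, Ly6Glo CD11blo/- F4/80hi), the macrophages of the spleen that take up aged red blood cells and recycle their iron. The labels name no treatment, and the comparisons ask how the genes differ along the path from monocyte to RPM and between genotypes. The sort sets the cell types by surface markers alone, so each library holds whatever other cells passed the gate.

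The libraries held 3562367 to 6559454 counts each (median 4728764). The 34 genes summed to 4021 to 9108 counts per library, or 0.0872% to 0.174% of all counts. A level of 3 counts corresponded to 0.457 to 0.842 CPM (counts relative to the library's total count) before scaling. CPM were scaled between libraries by the trimmed mean of M values (TMM), values of single libraries are given for mice 1 to 4 in that order, and RPKM (CPM per kilobase of annotated exon) is used wherever different genes are set side by side. Each library came from 1 mouse, so the tests measure the spread between mice. A gene is said to rise or fall where the adjusted p of edgeR's quasi-likelihood test (Benjamini-Hochberg over all genes tested) was under 0.05, and errors of log2 fold changes are standard errors.

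The receptor gene itself did not follow the genotype label in every cell type. Il1rl1 had 28, 19, 12 and 13 counts in WT monocytes, 18, 15, 13 and 24 counts in WT pre-RPMs and 5, 9, 7 and 13 counts in WT RPMs. In libraries labelled Il1rl1-/-, it had 51, 73, 71 and 64 counts in monocytes, 50, 76, 42 and 65 counts in pre-RPMs and 1, 7, 3 and 6 counts in RPMs. The monocyte and pre-RPM libraries labelled Il1rl1-/- were thus all above their WT counterparts, while the RPM groups overlapped. Which part of the gene the allele lacks was not given in the sources used here, and counts summed over the gene do not check a deletion of part of it. The genotype is therefore given as the label states it.

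The cell type labels were set beside marker genes. The summed level of 8 RPM markers (among them Spic, Vcam1, Hmox1 and Slc40a1) was 4757 to 6342 CPM in WT RPMs, against 96.7 to 229 CPM in WT pre-RPMs and 34.1 to 70.7 CPM in WT monocytes, and 6604 to 6933, 101 to 131 and 22.2 to 68.3 CPM in the libraries labelled Il1rl1-/-. All 8 RPM markers had counts in every RPM library, with Slc40a1 or Vcam1 the most abundant, while C6, Cd5l or Mertk was at 0 in several monocyte and pre-RPM libraries. The 8 monocyte markers summed to 937, 641, 2489.9 and 1909.7 CPM in WT monocytes and 1085, 1555, 2985 and 2196 CPM in monocytes labelled Il1rl1-/-, and the monocyte libraries of mice 1 and 2 stood below those of mice 3 and 4 in both genotypes. In pre-RPMs the same list summed to 1909.7 to 2970.4 CPM in WT and 2391 to 3090.5 CPM with the label Il1rl1-/-, above the monocytes of mice 1, 2 and 4 and overlapping those of mouse 3, and it was lowest in RPMs (299 to 318 and 287 to 342 CPM), so it sets RPMs apart but not monocytes from pre-RPMs. Treml4 made most of these RPM sums, at 245, 209, 282 and 252 CPM in WT. With the label Il1rl1-/-, Treml4 read 294, 254, 267 and 272 CPM in RPMs. The study names Treml4 among the prototypic genes of iron-recycling macrophages. Across the monocyte libraries, the 6 NK cell markers ran the other way from the monocyte markers, at 1523, 1792, 536 and 989.9 CPM in WT monocytes and 1479.7, 1109, 476 and 761 CPM in monocytes labelled Il1rl1-/-. The 12 erythroid markers, all with counts in every RPM library and led by Hbb-bs, summed to 2144, 1504, 24661 and 10366 CPM in WT RPMs and 2949, 948, 11740.1 and 15944 CPM in RPMs labelled Il1rl1-/-, highest in mice 3 and 4. The number of calls at each step between cell types is given with and without these libraries.

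Sums of the other marker lists are given as the lowest to the highest library of a group. The 10 neutrophil markers lay at 765 to 2492 CPM in WT monocytes, 199 to 283 CPM in WT pre-RPMs and 12.3 to 22.9 CPM in WT RPMs. The same list lay at 1031 to 2075, 196 to 432 and 1.98 to 6.53 CPM in the libraries labelled Il1rl1-/-. The 6 eosinophil markers summed to 53.4 to 96.7 CPM in WT pre-RPMs and 294 to 428 CPM in WT RPMs, and the 6 markers of dividing cells to 20.02 to 37.1 and 134 to 199 CPM. Pre-RPMs and RPMs labelled Il1rl1-/- had 55.5 to 84.2 and 329 to 409 CPM of eosinophil markers and 15.3 to 33.5 and 67.3 to 162 CPM of dividing cell markers. Of the eosinophil sum in WT RPMs, Ccr3 alone made 315, 269, 394 and 269.7 CPM, while Epx, Ear1 or Siglecf was at 0 in 3 of the 4 libraries. T cell markers (6 genes) lay at 45.4 to 127, 14.3 to 23.98 and 19.8 to 77.1 CPM in WT monocytes, pre-RPMs and RPMs, and B and plasma cell markers (6 genes) at 509 to 995, 263 to 356 and 237 to 809 CPM. In the same order, the groups labelled Il1rl1-/- had 41.3 to 117, 8.61 to 17.2 and 14.8 to 44.8 CPM of T cell markers and 383 to 1754, 102 to 459 and 71.8 to 247 CPM of B and plasma cell markers. The part of these other cells in the results was not tested.

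Glycolysis splits glucose into pyruvate and yields ATP without oxygen. Glucose enters through facilitative transporters, is trapped by hexokinases and is committed by phosphofructokinase, and the pyruvate made at the end is either reduced to lactate, which leaves through monocarboxylate transporters, or enters the mitochondria through pyruvate dehydrogenase. The pentose phosphate pathway branches off after the hexokinase step. Its oxidative arm yields NADPH, the reductant used against oxidative stress and for lipid synthesis, and its non-oxidative arm exchanges pentoses with glycolytic sugars. In macrophages, high glycolysis is known from inflammatory activation, and NADPH is also used by the phagocyte oxidase.

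The monocarboxylate transporters Slc16a1 and Slc16a3, the hexokinase Hk3 and the lactate dehydrogenase subunit Ldhb are 4 genes whose share within their family differed between pre-RPMs and RPMs. The 250 bases before their start sites (RefSeq, GRCm38.p6, 5′ to 3′ on the gene's strand) are printed to show where the motifs searched lie in them. Capitals mark 4 motifs searched on both strands: ACGTG (core of a hypoxia response element), CACGTG (E box), GAGGAA (a purine-rich ETS core) and TGACNNNGC (core of an antioxidant response element). Every CACGTG contains ACGTG on both strands.
Slc16a1 (chr3:104638414-104638663, plus strand): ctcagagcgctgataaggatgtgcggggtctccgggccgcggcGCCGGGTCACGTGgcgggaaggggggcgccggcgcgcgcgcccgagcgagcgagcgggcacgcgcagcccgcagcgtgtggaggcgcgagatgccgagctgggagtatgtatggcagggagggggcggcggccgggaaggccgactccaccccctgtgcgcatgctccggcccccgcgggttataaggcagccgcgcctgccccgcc
Slc16a3 (chr11:120948817-120949066, plus strand): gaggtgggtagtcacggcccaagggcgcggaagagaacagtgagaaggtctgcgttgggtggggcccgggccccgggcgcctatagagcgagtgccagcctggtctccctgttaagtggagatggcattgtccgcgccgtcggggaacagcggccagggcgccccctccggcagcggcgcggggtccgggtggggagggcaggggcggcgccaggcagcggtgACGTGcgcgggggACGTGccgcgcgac
Hk3 (chr13:55021386-55021635, minus strand): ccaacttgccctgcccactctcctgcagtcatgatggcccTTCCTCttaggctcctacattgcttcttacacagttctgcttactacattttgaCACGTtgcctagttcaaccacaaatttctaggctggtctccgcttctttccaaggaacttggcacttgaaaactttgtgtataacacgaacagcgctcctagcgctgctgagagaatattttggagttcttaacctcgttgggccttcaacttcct
Ldhb (chr6:142507958-142508207, minus strand): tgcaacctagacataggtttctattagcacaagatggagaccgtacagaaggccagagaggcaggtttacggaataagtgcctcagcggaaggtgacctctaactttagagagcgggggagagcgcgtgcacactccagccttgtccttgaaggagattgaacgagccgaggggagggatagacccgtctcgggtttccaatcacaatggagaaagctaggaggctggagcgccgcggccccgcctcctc
The Slc16a1 window held CACGTG starting 200 bases before the start site, and a TGACNNNGC match on the opposite strand that overlaps it. In the Slc16a3 window, ACGTG stood 27 and 14 bases before the start site. Hk3 had ACGTG and GAGGAA, each on the opposite strand, and none of the 4 motifs lay in the Ldhb window. Promoters were matched for 33 of the 34 genes. Some genes have several start sites, which gave 47 windows. ACGTG was present in 16 of them (34%), against 16.6% of 32851 mouse promoters of the same length. CACGTG was present in 4 (8.51%, and 6.02% of all), GAGGAA in 14 (29.8%, and 23.3% of all) and TGACNNNGC in 5 (10.6%, and 10.2% of all). The windows of 1 gene can overlap, and a match is a description of the letters only.

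The change from pre-RPMs to RPMs was the step at which most of the genes moved, and most of those that moved were lower in RPMs. Of the 32 genes that passed the filter on low counts, 18 fell and 3 rose in WT mice, where 50.4% of all 11239 genes tested passed in either direction (24.8% lower and 25.6% higher). In libraries labelled Il1rl1-/-, 19 of 32 fell and 3 rose, against 26.7% lower and 27.3% higher among all genes and 54.1% in both directions. The median log2 fold change of the tested genes was -0.57 in WT and -0.55 in libraries labelled Il1rl1-/-, beside -0.0012 and -0.0018 over all genes tested. At the stricter thresholds of the study for cell types (a log2 fold change beyond 1 in size with an adjusted p below 0.01), 10 genes fell and 3 rose in WT (background 10.7% and 14%, together 24.7%), and 11 fell and 3 rose in libraries labelled Il1rl1-/- (11.5% and 14.5%, together 26%). The 2 genes below the filter were Fbp1, which encodes a gluconeogenic phosphatase and had 0 to 5 counts per library, and Aldoc, an aldolase isoform with 0 to 12 counts.

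Hk3, Pdk1 and Slc16a1 rose in both genotypes, and 17 genes fell in both, out of 18 in WT and 19 in libraries labelled Il1rl1-/-. Of all genes tested in both genotypes, 22.3% rose in both and 21.7% fell in both. Taldo1 fell in WT alone, and Pdha1 and Pfkfb3 fell in the libraries labelled Il1rl1-/- alone, but no interaction with genotype passed the test for any of them. At the thresholds of the study, Hk1, Hk2, Ldhb, Pfkfb4, Pfkp, Pgd, Pkm, Slc16a3 and Slc2a3 fell in both genotypes, as did 9.47% of all genes. All 4 RPM libraries lay below all 4 pre-RPM libraries for 14 of the 32 tested genes in WT (20.9% of all genes tested) and for 17 in libraries labelled Il1rl1-/- (22.3%), and above them for 4 (25.7%) and 3 (27%). In these bulk samples, fewer cells of a type and less RNA per cell cannot be told apart. Without the RPM libraries of mice 3 and 4, in which erythroid markers were highest, 20 genes passed in WT and 21 in libraries labelled Il1rl1-/-, where 43.0% and 47.1% of all genes did.

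**Figure D1:**
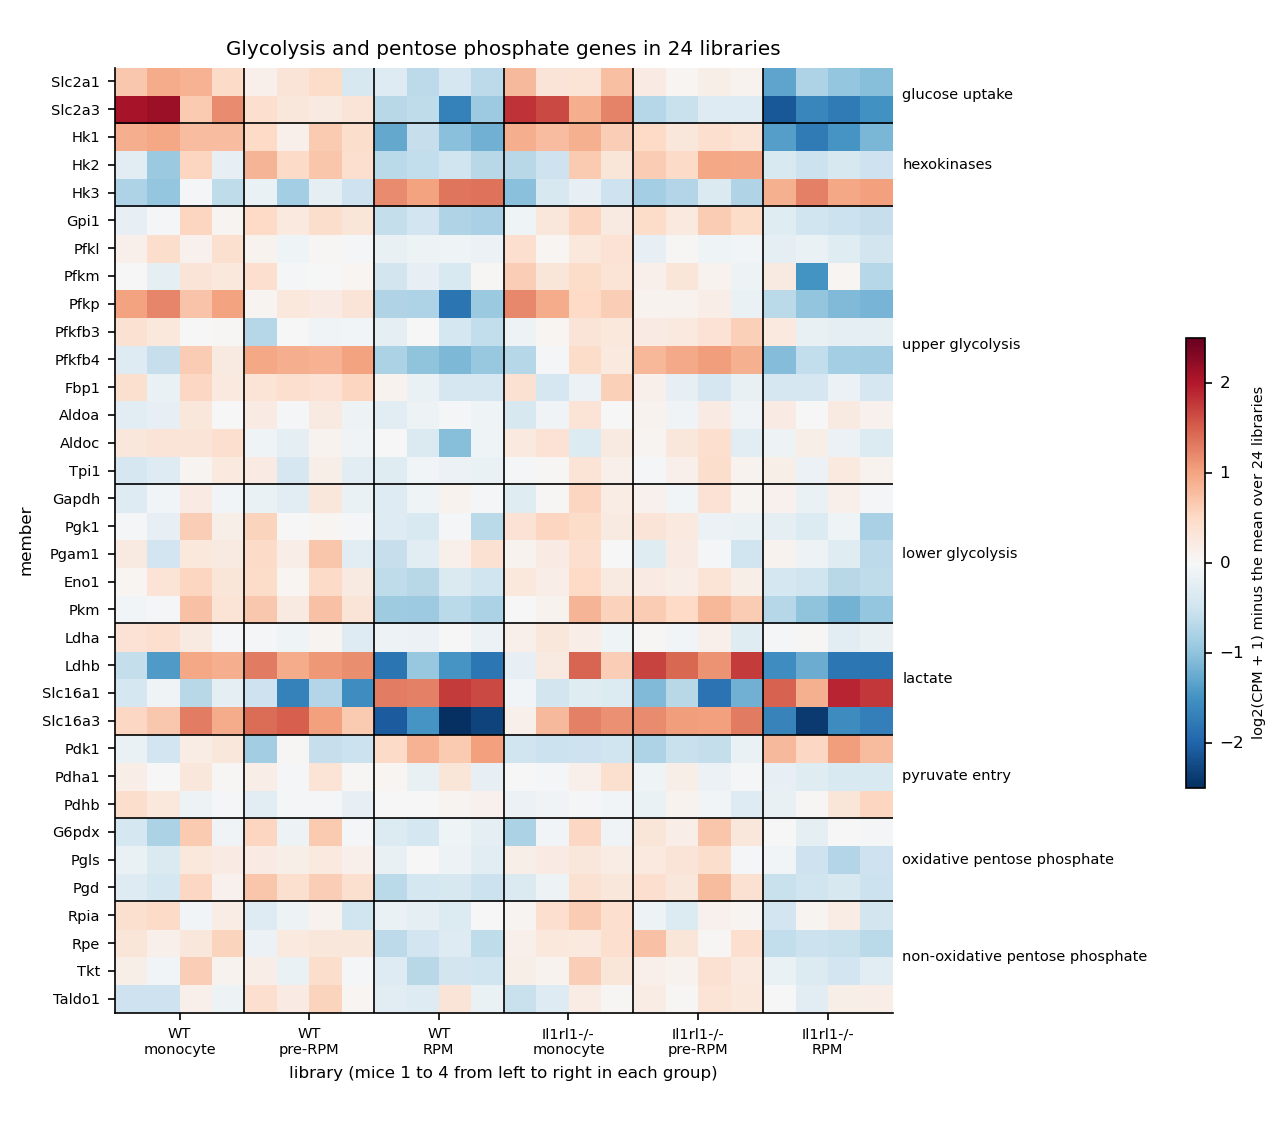
Each row is a gene of the pathway, in order of its steps, and each column a library (mice 1 to 4 from left to right in each of 6 groups). Color gives log2(CPM + 1) minus the gene's mean over the 24 libraries, from blue (lower) to red (higher). The RPM columns are blue for most genes and red for Hk3, Slc16a1 and Pdk1.

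**Figure D2:**
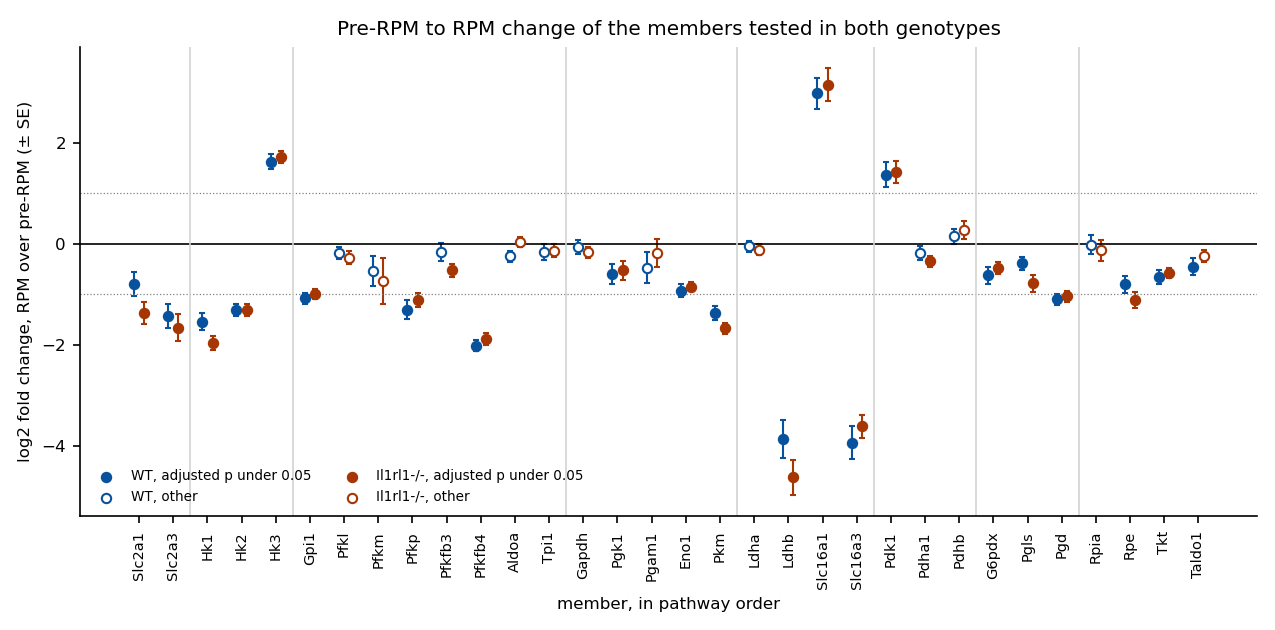
Points give the log2 fold change from pre-RPMs to RPMs, with bars of 1 standard error, for each tested gene in WT (blue) and in libraries labelled Il1rl1-/- (orange), filled where the adjusted p was under 0.05. Dotted lines mark an absolute log2 fold change of 1. Slc16a1 lies highest and Ldhb and Slc16a3 lowest in both genotypes. Slc16a1 among pre-RPMs alone, and Ldhb and Slc16a3 among RPMs alone, were below the filter on low counts, so the size of these changes is approximate.

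Both glucose transporters fell from pre-RPMs to RPMs in both genotypes (21.7% of all genes fell in both). Slc2a1, the glucose transporter of most tissues (chr4:119108711-119137983, GRCm38), read 13.8, 16.7, 15.9 and 11.9 CPM in WT monocytes, 9.11, 10.5, 11.8 and 5.97 CPM in WT pre-RPMs and 6.38, 4.91, 5.901 and 4.87 CPM in WT RPMs. In libraries labelled Il1rl1-/-, Slc2a1 read 15.3, 10.6, 10.8 and 14.7 CPM in monocytes, 9.73, 8.52, 9.26 and 8.796 CPM in pre-RPMs and 2.702, 4.43, 3.74 and 3.42 CPM in RPMs. Levels were highest in monocytes and lowest in RPMs, and the WT pre-RPM and RPM groups overlapped through the pre-RPM library of mouse 4. Slc2a1 fell from pre-RPMs to RPMs with log2 fold changes of -0.80 ± 0.24 (adjusted p = 0.0109) in WT and -1.37 ± 0.21 (adjusted p = 5.13e-05) in libraries labelled Il1rl1-/-. Slc2a3, a transporter with high affinity for glucose (chr6:122727809-122801640), read 41.2, 43.7, 14.97 and 22.1 CPM in WT monocytes, 12.6, 11.3, 10.8 and 11.7 CPM in WT pre-RPMs and 5.32, 5.52, 2.15 and 4.41 CPM in WT RPMs. Slc2a3 levels in libraries labelled Il1rl1-/- were 34.6, 30.8, 18.2 and 22.9 CPM in monocytes, 5.22, 5.96, 7.17 and 7.11 CPM in pre-RPMs and 1.35, 2.298, 1.98 and 2.57 CPM in RPMs. The 3 cell types did not overlap in either genotype, each step being lower than the one before it, and in monocytes the libraries of mice 1 and 2, where NK markers were highest, were also highest for Slc2a3. Slc2a3 fell from pre-RPMs to RPMs by log2 fold changes of -1.43 ± 0.24 (adjusted p = 0.000158) and -1.66 ± 0.27 (adjusted p = 7.52e-05). The share of Slc2a3 in the summed level per kilobase of both transporters was 48.4 ± 12.4%, 38.4 ± 7.85% and 27.4 ± 8.71% (SD, n = 4) in WT monocytes, pre-RPMs and RPMs, and 49.7 ± 7.13%, 25.3 ± 3.35% and 21.6 ± 3.35% in the libraries labelled Il1rl1-/-. In WT RPMs, mouse 3 had 14.96%, and the other 3 libraries, at 28.7% to 35.3%, overlapped the range of pre-RPMs through mouse 2 alone. The WT difference of -11.1 percentage points was -6.96 without that library. The RPM shares rest on few counts, as both transporters together had 30 to 55 counts per WT RPM library and 18 to 41 with the label Il1rl1-/-. Summed over both, uptake went from 4.27 ± 0.67 RPKM in WT pre-RPMs to 2.17 ± 0.267 RPKM in WT RPMs, and from 3.47 ± 0.158 to 1.302 ± 0.258 RPKM in libraries labelled Il1rl1-/-.

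Of the 3 hexokinases, which trap glucose in the cell, Hk1 and Hk2 fell and Hk3 rose in both genotypes (21.7% of all genes fell and 22.3% rose in both). Hk1, the isoform bound to mitochondria (chr10:62268855-62379908), read 54.5, 57.2, 49.98 and 49.5 CPM in WT monocytes, 40.9, 31.6, 45.7 and 39.4 CPM in WT pre-RPMs and 11.3, 18.8, 13.4 and 11.8 CPM in WT RPMs. Hk1 in libraries labelled Il1rl1-/- read 54.9, 49.6, 54.3 and 44.2 CPM in monocytes, 40.8, 34.9, 38.8 and 36.7 CPM in pre-RPMs and 10.4, 7.72, 9.69 and 12.4 CPM in RPMs. Every RPM library lay below every pre-RPM library, and every pre-RPM library below every monocyte library, in both genotypes. Hk1 fell from pre-RPMs to RPMs with log2 fold changes of -1.55 ± 0.17 (adjusted p = 2.82e-06) in WT and -1.98 ± 0.14 (adjusted p = 7.89e-09) in libraries labelled Il1rl1-/-. Hk2, the inducible isoform (chr6:82725025-82774454), read 26.9, 16.9, 48.6 and 28.4 CPM in WT monocytes, 60.002, 46.1, 53.9 and 44.4 CPM in WT pre-RPMs and 20.4, 21.3, 23.1 and 20.2 CPM in WT RPMs. For libraries labelled Il1rl1-/-, Hk2 read 20.02, 22.8, 52.7 and 41.1 CPM in monocytes, 51.7, 46.3, 65.4 and 64.4 CPM in pre-RPMs and 24.99, 22.3, 24.7 and 22.9 CPM in RPMs. Pre-RPMs were above RPMs without overlap, while monocytes overlapped both, with mice 1 and 2 low. Hk2 fell from pre-RPMs to RPMs with log2 fold changes of -1.32 ± 0.12 (adjusted p = 5.94e-07) and -1.32 ± 0.12 (adjusted p = 2.06e-07).

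Hk3, an isoform known from myeloid cells (chr13:55005985-55021385), went the other way. Hk3 read 17.2, 14.8, 29.02 and 19.1 CPM in WT monocytes, 26.8, 16.3, 25.6 and 20.8 CPM in WT pre-RPMs and 69.3, 61.1, 77.2 and 78.4 CPM in WT RPMs. Hk3 in libraries labelled Il1rl1-/- read 14.1, 22.6, 25.9 and 20.9 CPM in monocytes, 16.4, 17.7, 23.3 and 17.6 CPM in pre-RPMs and 56.96, 73.5, 60.1 and 62.7 CPM in RPMs. All RPM libraries were above all other libraries of their genotype, and monocytes and pre-RPMs overlapped. Hk3 rose from pre-RPMs to RPMs with log2 fold changes of 1.62 ± 0.15 (adjusted p = 4.83e-07) in WT and 1.72 ± 0.12 (adjusted p = 1.09e-08) in libraries labelled Il1rl1-/-. Without the RPM libraries of mice 3 and 4, the values were 1.49 (adjusted p = 2.45e-06) and 1.76 (adjusted p = 3.27e-08). Per kilobase, Hk3 made up 31.3 ± 2.29% (SD, n = 4) of hexokinase RNA in WT pre-RPMs and 78.8 ± 3.21% in WT RPMs, and 26.7 ± 2.602% and 76.8 ± 3.03% in libraries labelled Il1rl1-/-. The share of Hk2 went from 44.6 ± 3.12% to 14.5 ± 1.21% in WT and from 49.9 ± 3.301% to 17.9 ± 2.16% in the other genotype, and that of Hk1 from 24.1 ± 1.97% to 6.68 ± 2.13% and from 23.4 ± 2.71% to 5.32 ± 1.21%. The summed hexokinase level was 19.3 ± 2.97 RPKM in WT pre-RPMs and 24.6 ± 1.95 RPKM in WT RPMs, with 19.1 ± 2.27 and 22.3 ± 1.62 RPKM in libraries labelled Il1rl1-/-.

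**Figure D3:**
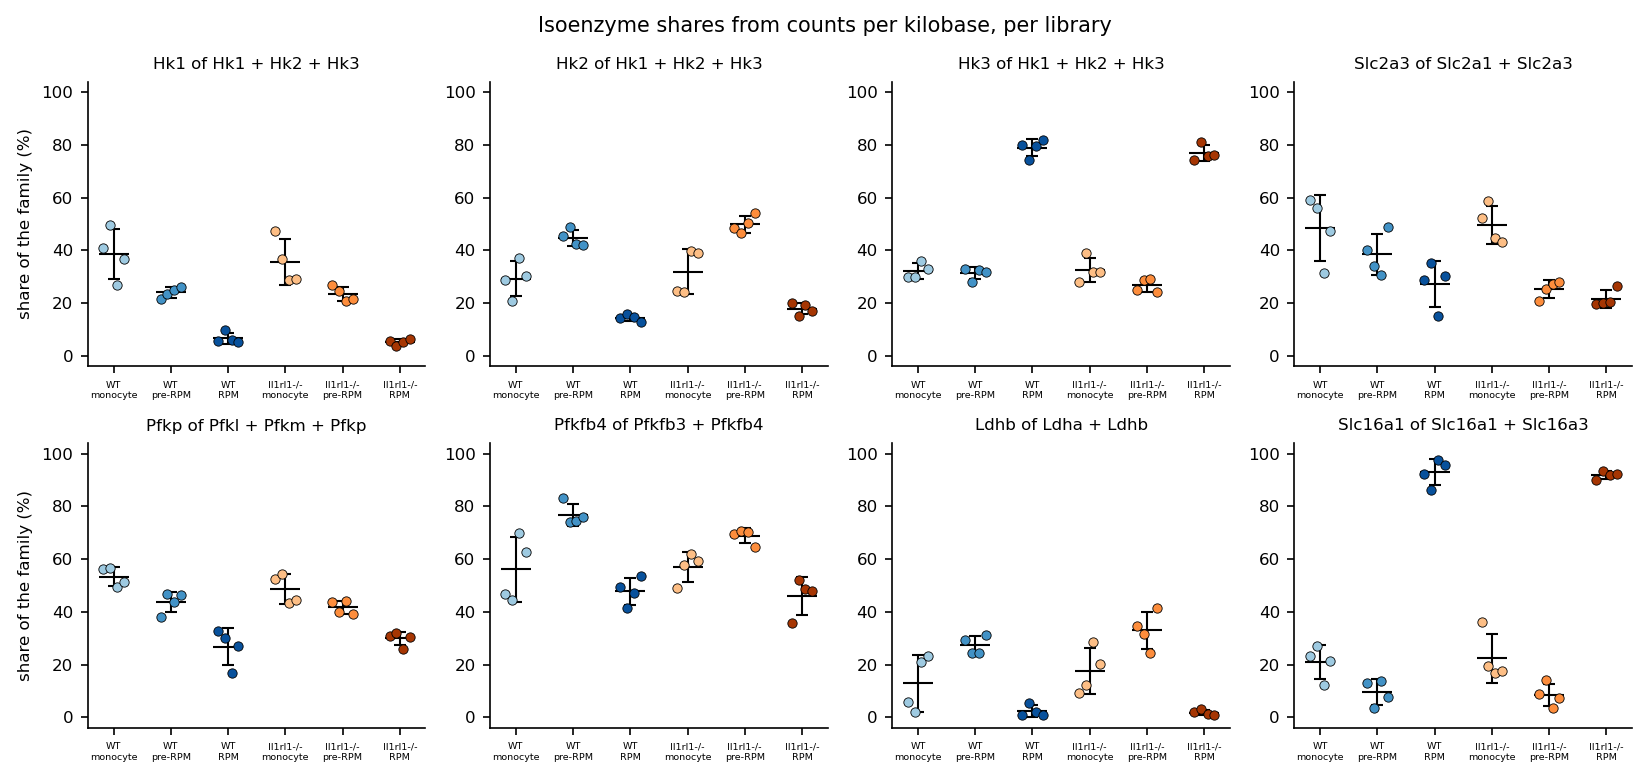
Each panel gives 1 gene's share (%) of the level per kilobase summed over its family, with 1 point per library and bars for the mean ± SD of 4 libraries. The share of Hk3 and of Slc16a1 is highest in RPMs (means of 78.8% and 92.95% in WT), and that of Ldhb lowest there (2.42%). From raw counts in place of counts per kilobase, the fall of Ldhb is smaller, and the level of Ldha in that share is uncertain.

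In upper glycolysis, 3 of 8 tested genes fell in WT and 4 in libraries labelled Il1rl1-/- (24.8% and 26.7% of all genes fell), and none rose. Pfkp, the platelet-type subunit of phosphofructokinase (chr13:6579768-6648777), read 63.9, 73.6, 51.6 and 63.6 CPM in WT monocytes, 32.7, 37.4, 35.9 and 38.9 CPM in WT pre-RPMs and 18.1, 17.8, 8.05 and 15.8 CPM in WT RPMs. Pfkp in libraries labelled Il1rl1-/- read 73.2, 60.4, 44.5 and 47.9 CPM in monocytes, 32.99, 33.04, 34.9 and 27.7 CPM in pre-RPMs and 19.1, 15.3, 13.9 and 13.3 CPM in RPMs. The 3 cell types were apart in both genotypes, falling from monocytes to RPMs, and the WT RPM library of mouse 3 lay below the other RPM libraries. Pfkp fell from pre-RPMs to RPMs with log2 fold changes of -1.31 ± 0.19 (adjusted p = 3.98e-05) in WT and -1.12 ± 0.13 (adjusted p = 3.02e-06) in libraries labelled Il1rl1-/-. Pfkfb4, a bifunctional enzyme that sets the level of the sugar phosphate activating phosphofructokinase (chr9:108991778-109032228), read 21.4, 17.9, 42.6 and 31.7 CPM in WT monocytes, 53.9, 51.4, 49.9 and 54.95 CPM in WT pre-RPMs and 15.1, 12.9, 11.8 and 13.4 CPM in WT RPMs. Pfkfb4 in libraries labelled Il1rl1-/- read 16.1, 25.96, 37.6 and 32.02 CPM in monocytes, 48.9, 52.97, 56.5 and 50.9 CPM in pre-RPMs and 12.2, 17.2, 14.5 and 14.3 CPM in RPMs. All pre-RPM libraries were above all monocyte and all RPM libraries of their genotype. Pfkfb4 fell from pre-RPMs to RPMs with log2 fold changes of -2.02 ± 0.11 (adjusted p = 3.42e-09) and -1.89 ± 0.11 (adjusted p = 1.35e-09). Aldoa, the aldolase with the highest level per kilobase among the genes of upper glycolysis (chr7:126795234-126809108), read 88.6, 92.1, 129 and 105 CPM in WT monocytes, 122, 103, 125 and 97.2 CPM in WT pre-RPMs and 87.9, 97.5, 103.8 and 98.8 CPM in WT RPMs. Aldoa in libraries labelled Il1rl1-/- read 79.8, 99.8, 135 and 107 CPM in monocytes, 113, 99.98, 123 and 99.9 CPM in pre-RPMs and 122, 106, 124 and 114 CPM in RPMs. Pre-RPM and RPM libraries overlapped in both genotypes, and Aldoa gave log2 fold changes of -0.25 ± 0.12 (adjusted p = 0.0847) and 0.04 ± 0.10 (adjusted p = 0.746).

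Of the other genes of upper glycolysis, Gpi1, the isomerase after hexokinase, fell from 129 ± 10.6 to 62.9 ± 6.82 CPM (SD, n = 4) in WT and from 137 ± 14.6 to 71.4 ± 6.65 CPM in libraries labelled Il1rl1-/- (-1.08, adjusted p = 1.92e-06, and -0.99, adjusted p = 8.27e-07 on the log2 scale). Pfkfb3, the paralog of Pfkfb4, had log2 fold changes of -0.16 (adjusted p = 0.471) in WT and -0.52 (adjusted p = 0.00314) in libraries labelled Il1rl1-/-, and the share of Pfkfb4 in their sum per kilobase went from 76.8 ± 4.29% to 47.9 ± 5.15% and from 68.9 ± 2.88% to 46.03 ± 7.12%. The liver-type subunit Pfkl and the muscle-type subunit Pfkm did not pass in either genotype (-0.19 and -0.27 for Pfkl, -0.54 and -0.75 for Pfkm), nor did the triose phosphate isomerase Tpi1 (-0.16 in WT and -0.14 in libraries labelled Il1rl1-/-). Per kilobase, Pfkp was 43.7 ± 3.92% of phosphofructokinase RNA in WT pre-RPMs and 26.7 ± 7.002% in WT RPMs, with 41.7 ± 2.598% and 29.9 ± 2.64% in libraries labelled Il1rl1-/-. Aldoc took 0.984 ± 0.139% and 0.781 ± 0.584% of aldolase RNA in WT pre-RPMs and RPMs, with the level of Aldoa uncertain as given below under lower glycolysis. Summed over its 10 genes, upper glycolysis stood at 77.9 ± 6.20 RPKM in WT pre-RPMs and 52.2 ± 1.99 RPKM in WT RPMs, and at 80.4 ± 6.43 and 60.7 ± 4.17 RPKM in the libraries labelled Il1rl1-/-.

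In lower glycolysis, 3 of 5 genes (Pkm, Eno1 and Pgk1) fell in both genotypes and none rose, where 21.7% of all genes fell in both. Pkm, pyruvate kinase and the gene with the highest level per kilobase in this arm (chr9:59656368-59679375), read 149.8, 152, 262 and 199.8 CPM in WT monocytes, 252, 183, 261 and 196 CPM in WT pre-RPMs and 84.2, 83.01, 97.9 and 89.7 CPM in WT RPMs. Pkm in libraries labelled Il1rl1-/- read 157, 167, 284 and 235 CPM in monocytes, 244, 221, 280.2 and 243 CPM in pre-RPMs and 95.5, 77.5, 68.5 and 79.996 CPM in RPMs. RPMs were below pre-RPMs and monocytes without overlap in both genotypes. Pkm fell from pre-RPMs to RPMs with log2 fold changes of -1.38 ± 0.14 (adjusted p = 1.13e-06) in WT and -1.68 ± 0.11 (adjusted p = 5.89e-09) in libraries labelled Il1rl1-/-. Eno1, enolase, fell from 58.5 ± 8.201 to 31.8 ± 3.27 CPM in WT and from 54.5 ± 3.29 to 31.4 ± 2.71 CPM in libraries labelled Il1rl1-/- (-0.93, adjusted p = 2.24e-05, and -0.85, adjusted p = 1.83e-06). Pgk1, the ATP-forming phosphoglycerate kinase, fell by less (-0.59, adjusted p = 0.0217, and -0.53, adjusted p = 0.0265). Its call was lost without the WT pre-RPM library of mouse 1 (-0.42, adjusted p = 0.0861) or the WT RPM library of mouse 4 (-0.48, adjusted p = 0.0716), and in the other genotype without the pre-RPM library of mouse 1 (-0.44, adjusted p = 0.0836) or mouse 2 (-0.47, adjusted p = 0.0763) or the RPM library of mouse 4 (-0.39, adjusted p = 0.0769), and without RPM mice 3 and 4 (-0.46, adjusted p = 0.0706). With that label, it was also lost with DESeq2 (-0.52, adjusted p = 0.0674) and with all 24 libraries in 1 fit (-0.47, adjusted p = 0.0565). Gapdh, often used as a reference gene, had log2 fold changes of -0.07 in WT and -0.17 in libraries labelled Il1rl1-/-, and Pgam1, phosphoglycerate mutase, had -0.48 in WT and -0.18 in libraries labelled Il1rl1-/-, neither past the test. Gapdh, Aldoa, Pgk1, Pgam1, Tpi1, Ldha and Eno1 have many near-identical processed copies in the genome, and reads that map to several places were not counted, so the levels of these 7 genes are uncertain. The summed level was 77.7 ± 12.8 RPKM in WT pre-RPMs and 42.7 ± 4.27 RPKM in WT RPMs, with 82.1 ± 6.64 and 41.4 ± 3.84 RPKM in the libraries labelled Il1rl1-/-.

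Of the 4 genes that make and carry lactate, Ldhb and Slc16a3 fell and Slc16a1 rose in both genotypes (21.7% of all genes fell and 22.3% rose in both). Ldha, the main subunit of lactate dehydrogenase (chr7:46841475-46855627), read 64.4, 67.002, 58.5 and 49.04 CPM in WT monocytes, 48.8, 46.1, 52.9 and 39.9 CPM in WT pre-RPMs and 45.9, 44.98, 50.4 and 45.4 CPM in WT RPMs. Ldha in libraries labelled Il1rl1-/- read 55.1, 61.01, 56.6 and 46.7 CPM in monocytes, 51.3, 48.03, 54.96 and 40.4 CPM in pre-RPMs and 48.9, 51.2, 41.6 and 44.1 CPM in RPMs. Pre-RPMs and RPMs overlapped in both genotypes, and Ldha gave log2 fold changes of -0.05 ± 0.11 (adjusted p = 0.713) in WT and -0.12 ± 0.11 (adjusted p = 0.395) in libraries labelled Il1rl1-/-. Ldhb, the subunit known from tissues that consume lactate (chr6:142490249-142507957), read 1.84, 0.602, 7.37 and 7.07 CPM in WT monocytes, 9.57, 7.11, 8.12 and 8.602 CPM in WT pre-RPMs and 0.213, 1.23, 0.536 and 0.232 CPM in WT RPMs. Ldhb in libraries labelled Il1rl1-/- read 2.72, 4.01, 10.8 and 5.58 CPM in monocytes, 12.8, 10.6, 8.36 and 13.5 CPM in pre-RPMs and 0.45, 0.821, 0.22 and 0.214 CPM in RPMs. All RPM libraries lay below all pre-RPM libraries in both genotypes, with 1 to 6 counts per RPM library, and the monocyte libraries of mice 1 and 2 were lower than those of mice 3 and 4. Ldhb fell from pre-RPMs to RPMs with log2 fold changes of -3.86 ± 0.38 (adjusted p = 9.45e-07) and -4.63 ± 0.35 (adjusted p = 2.09e-08). Among RPM libraries alone, Ldhb was below the filter on low counts, so the size of its fall is approximate. Its share of lactate dehydrogenase RNA per kilobase was 12.96 ± 10.8%, 27.4 ± 3.42% and 2.42 ± 2.09% in WT monocytes, pre-RPMs and RPMs and 17.6 ± 8.67%, 32.9 ± 7.03% and 1.82 ± 1.04% in libraries labelled Il1rl1-/-. The size of its fall from pre-RPMs to RPMs depends on the scale, with -24.96 and -31.11 percentage points per kilobase in WT and in libraries labelled Il1rl1-/-, and -14.03 and -18.18 from raw counts. These shares also rest on the level of Ldha, which is uncertain because of its near-identical copies in the genome.

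Slc16a3 and Slc16a1, transporters that carry lactate and pyruvate across the cell membrane, went in opposite directions. Slc16a3, the isoform known for lactate export from glycolytic cells (chr11:120948480-120960868), read 12.7, 14.2, 22.1 and 17.3 CPM in WT monocytes, 24.05, 25.8, 18.4 and 14.1 CPM in WT pre-RPMs and 1.28, 2.45, 0.536 and 0.928 CPM in WT RPMs. Slc16a3 in libraries labelled Il1rl1-/- read 9.39, 15.8, 22.05 and 20.04 CPM in monocytes, 20.7, 18.7, 18.5 and 22.5 CPM in pre-RPMs and 2.03, 0.821, 2.202 and 1.93 CPM in RPMs. RPMs were below pre-RPMs and monocytes without overlap, with 2 to 12 counts per RPM library. Slc16a3 fell from pre-RPMs to RPMs with log2 fold changes of -3.94 ± 0.33 (adjusted p = 1.82e-07) in WT and -3.62 ± 0.23 (adjusted p = 2.15e-09) in libraries labelled Il1rl1-/-. It was below the filter on low counts among RPM libraries alone, so the size of this fall is approximate. Slc16a1, the widely expressed isoform (chr3:104638668-104658462), read 3.23, 4.41, 2.53 and 3.91 CPM in WT monocytes, 3.04, 0.79, 2.46 and 0.956 CPM in WT pre-RPMs and 12.98, 12.7, 18.2 and 16.9 CPM in WT RPMs. Slc16a1 in libraries labelled Il1rl1-/- read 4.45, 3.17, 3.67 and 3.51 CPM in monocytes, 1.66, 2.55, 0.597 and 1.497 CPM in pre-RPMs and 14.9, 9.69, 20.5 and 18.6 CPM in RPMs. RPMs were above monocytes and pre-RPMs without overlap, and within RPMs the libraries of mice 3 and 4, with the highest erythroid sums, were above those of mice 1 and 2 in both genotypes. Slc16a1 rose from pre-RPMs to RPMs with log2 fold changes of 2.98 ± 0.31 (adjusted p = 2.02e-06) and 3.15 ± 0.33 (adjusted p = 8.04e-07). Among pre-RPM libraries alone, Slc16a1 was below the filter on low counts, so the size of its rise is approximate. Without the RPM libraries of mice 3 and 4, the rise was 2.74 (adjusted p = 1.64e-05) and 2.78 (adjusted p = 6.54e-06). A further monocarboxylate transporter outside the 34 genes, Slc16a7, also rose, from 19.4, 19.5, 17.5 and 21.98 to 40.8, 32.5, 49.1 and 39.9 CPM in WT and from 16.9, 16.9, 17.3 and 21.5 to 39.2, 40.9, 36.5 and 45.1 CPM in libraries labelled Il1rl1-/- (1.00 and 1.09 on the log2 scale, adjusted p = 3.58e-05 and 9.34e-07). Slc16a1 made up 9.51 ± 4.88% of the pair of Slc16a1 and Slc16a3 per kilobase in WT pre-RPMs and 92.95 ± 5.03% in WT RPMs, and 8.51 ± 4.29% and 91.8 ± 1.49% in libraries labelled Il1rl1-/-. The 4 lactate genes summed to 23.78 ± 2.49 and 18.1 ± 1.14 RPKM in WT pre-RPMs and RPMs, and to 26.04 ± 1.25 and 18.2 ± 0.446 RPKM in libraries labelled Il1rl1-/-.

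Of the 3 genes at the entry of pyruvate into mitochondria, Pdk1 rose in both genotypes, as did 22.3% of all genes, and Pdha1 fell in libraries labelled Il1rl1-/-. Pdk1, a kinase that inhibits pyruvate dehydrogenase (chr2:71873224-71903858), read 5.22, 4.01, 6.91 and 7.52 CPM in WT monocytes, 2.802, 6.06, 3.69 and 3.82 CPM in WT pre-RPMs and 8.72, 11.7, 9.92 and 13.2 CPM in WT RPMs. Pdk1 in libraries labelled Il1rl1-/- read 3.95, 3.7997, 3.89 and 3.92 CPM in monocytes, 3.09, 3.75, 3.58 and 5.24 CPM in pre-RPMs and 11.3, 9.03, 13.4 and 11.1 CPM in RPMs. RPMs were above pre-RPMs and monocytes without overlap in both genotypes. Pdk1 rose from pre-RPMs to RPMs with log2 fold changes of 1.37 ± 0.25 (adjusted p = 0.000361) in WT and 1.43 ± 0.22 (adjusted p = 4.99e-05) in libraries labelled Il1rl1-/-. Pdha1, the catalytic subunit of the dehydrogenase (chrX:160122209-160138413), read 33.5, 29.9, 36.2 and 30.2 CPM in WT monocytes, 33.2, 28.5, 37.6 and 30.3 CPM in WT pre-RPMs and 30.6, 25.8, 36.7 and 25.7 CPM in WT RPMs. Pdha1 in libraries labelled Il1rl1-/- read 29.4, 28.9, 32.6 and 39.5 CPM in monocytes, 27.5, 32.7, 26.6 and 28.8 CPM in pre-RPMs and 25.7, 23.97, 22.7 and 22.5 CPM in RPMs. In the libraries labelled Il1rl1-/- all RPM values lay below all pre-RPM values, whereas the WT groups overlapped, and Pdha1 gave log2 fold changes of -0.18 ± 0.14 (adjusted p = 0.316) and -0.35 ± 0.11 (adjusted p = 0.0113), with no test of the genotype difference passed. The latter call was lost without RPM mice 3 and 4 (-0.29, adjusted p = 0.0938), with DESeq2 (-0.35, adjusted p = 0.0551) and with all 24 libraries in 1 fit (-0.29, adjusted p = 0.0621). Pdhb, the partner subunit, had log2 fold changes of 0.14 in WT and 0.27 in libraries labelled Il1rl1-/- and did not pass. Summed, the 3 genes stood at 12.4 ± 1.07 and 12.95 ± 1.29 RPKM in WT pre-RPMs and RPMs and at 11.5 ± 1.003 and 11.8 ± 0.697 RPKM in libraries labelled Il1rl1-/-, less apart than their SD.

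All 3 genes of the oxidative pentose phosphate arm fell in both genotypes (21.7% of all genes fell in both). G6pdx, the dehydrogenase that opens the pathway (chrX:74409483-74429194), read 48.998, 37.9, 106 and 62.6 CPM in WT monocytes, 97.4, 60.9, 105 and 64.99 CPM in WT pre-RPMs and 52.3, 48.9, 62.2 and 57.04 CPM in WT RPMs. G6pdx in libraries labelled Il1rl1-/- read 38.1, 63.96, 95.5 and 63.0 CPM in monocytes, 82.4, 74.8, 108 and 81.2 CPM in pre-RPMs and 66.4, 57.1, 67.1 and 65.5 CPM in RPMs. RPMs lay below pre-RPMs without overlap in libraries labelled Il1rl1-/- and overlapped them in WT, and the monocytes overlapped both. G6pdx fell from pre-RPMs to RPMs with log2 fold changes of -0.62 ± 0.17 (adjusted p = 0.00665) in WT and -0.49 ± 0.12 (adjusted p = 0.00228) in libraries labelled Il1rl1-/-. The G6pdx calls were lost with all 24 libraries in 1 fit (-0.58, adjusted p = 0.0622, and -0.43, adjusted p = 0.155). Pgd, the later NADPH-yielding dehydrogenase (chr4:149149991-149166771), read 51.3, 47.1, 92.6 and 69.3 CPM in WT monocytes, 103.9, 85.1, 98.1 and 84.6 CPM in WT pre-RPMs and 39.8, 46.8, 48.5 and 43.8 CPM in WT RPMs. Pgd in libraries labelled Il1rl1-/- read 49.7, 58.3, 83.9 and 78.5 CPM in monocytes, 85.9, 78.7, 112 and 83.7 CPM in pre-RPMs and 43.003, 45.3, 48.4 and 43.8 CPM in RPMs. All RPM libraries were below all pre-RPM libraries. Pgd fell from pre-RPMs to RPMs with log2 fold changes of -1.10 ± 0.11 (adjusted p = 1.56e-06) and -1.05 ± 0.11 (adjusted p = 1.34e-06). Pgls, the lactonase between them, fell by log2 fold changes of -0.39 (adjusted p = 0.0216) and -0.78 (adjusted p = 0.000945), and its WT call was lost without the WT RPM library of mouse 1 (-0.36, adjusted p = 0.0611) or mouse 4 (-0.35, adjusted p = 0.0654) and without both mice 3 and 4 (-0.34, adjusted p = 0.117). The WT Pgls call was also lost with DESeq2 (-0.39, adjusted p = 0.0986), with every gene of at least 1 count (-0.39, adjusted p = 0.0967) and with all 24 libraries in 1 fit (-0.34, adjusted p = 0.0673). The arm summed to 45.9 ± 8.86 and 28.6 ± 2.13 RPKM in WT pre-RPMs and RPMs, and to 47.2 ± 7.62 and 30.8 ± 1.69 RPKM in libraries labelled Il1rl1-/-.

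In the non-oxidative pentose phosphate arm, 3 of 4 genes (Taldo1, Tkt and Rpe) fell in WT and 2 (Tkt and Rpe) in libraries labelled Il1rl1-/- (24.8% and 26.7% of all genes fell). Taldo1, transaldolase and the gene with the highest level per kilobase of all 34 (chr7:141392199-141402968), read 101, 101, 158 and 132 CPM in WT monocytes, 193, 167, 213 and 148 CPM in WT pre-RPMs and 119.5, 116, 181 and 128 CPM in WT RPMs. Taldo1 in libraries labelled Il1rl1-/- read 98.1, 115, 164 and 148 CPM in monocytes, 164, 148, 182 and 174 CPM in pre-RPMs and 144, 119, 159.8 and 161 CPM in RPMs. Pre-RPMs and RPMs overlapped in both genotypes. Taldo1 gave log2 fold changes of -0.45 ± 0.16 (adjusted p = 0.0307) in WT and -0.25 ± 0.11 (adjusted p = 0.0792) in libraries labelled Il1rl1-/-. The WT call was lost without the pre-RPM library of mouse 1 or 3 or the RPM library of mouse 1, 2 or 4 (adjusted p of 0.0737, 0.083, 0.0973, 0.081 and 0.0817 in that order) and with all 24 libraries in 1 fit (-0.41, adjusted p = 0.0576). Tkt, transketolase, fell from 81.9 ± 15.8 to 53.6 ± 5.597 CPM in WT and from 87.3 ± 8.43 to 60.9 ± 5.67 CPM in libraries labelled Il1rl1-/- (-0.66, adjusted p = 0.00107, and -0.57, adjusted p = 0.000167). Rpe, the pentose phosphate epimerase, fell from 16.8 ± 2.48 to 9.93 ± 1.22 CPM and from 19.6 ± 4.15 to 9.38 ± 0.486 CPM (-0.80, adjusted p = 0.000986, and -1.12, adjusted p = 2.81e-05). Rpia, the isomerase of the same sugar, had log2 fold changes of -0.02 in WT and -0.13 in libraries labelled Il1rl1-/- and did not pass. Over all 34 genes, the summed level was 362 ± 48.1 RPKM in WT pre-RPMs and 256 ± 23.9 RPKM in WT RPMs, against 366 ± 28.4 and 267 ± 12.8 RPKM in libraries labelled Il1rl1-/-, and the non-oxidative arm alone was 101 ± 15.1, 74.7 ± 14.3, 96.8 ± 7.74 and 80.3 ± 8.71 RPKM in the same order.

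**Figure D4:**
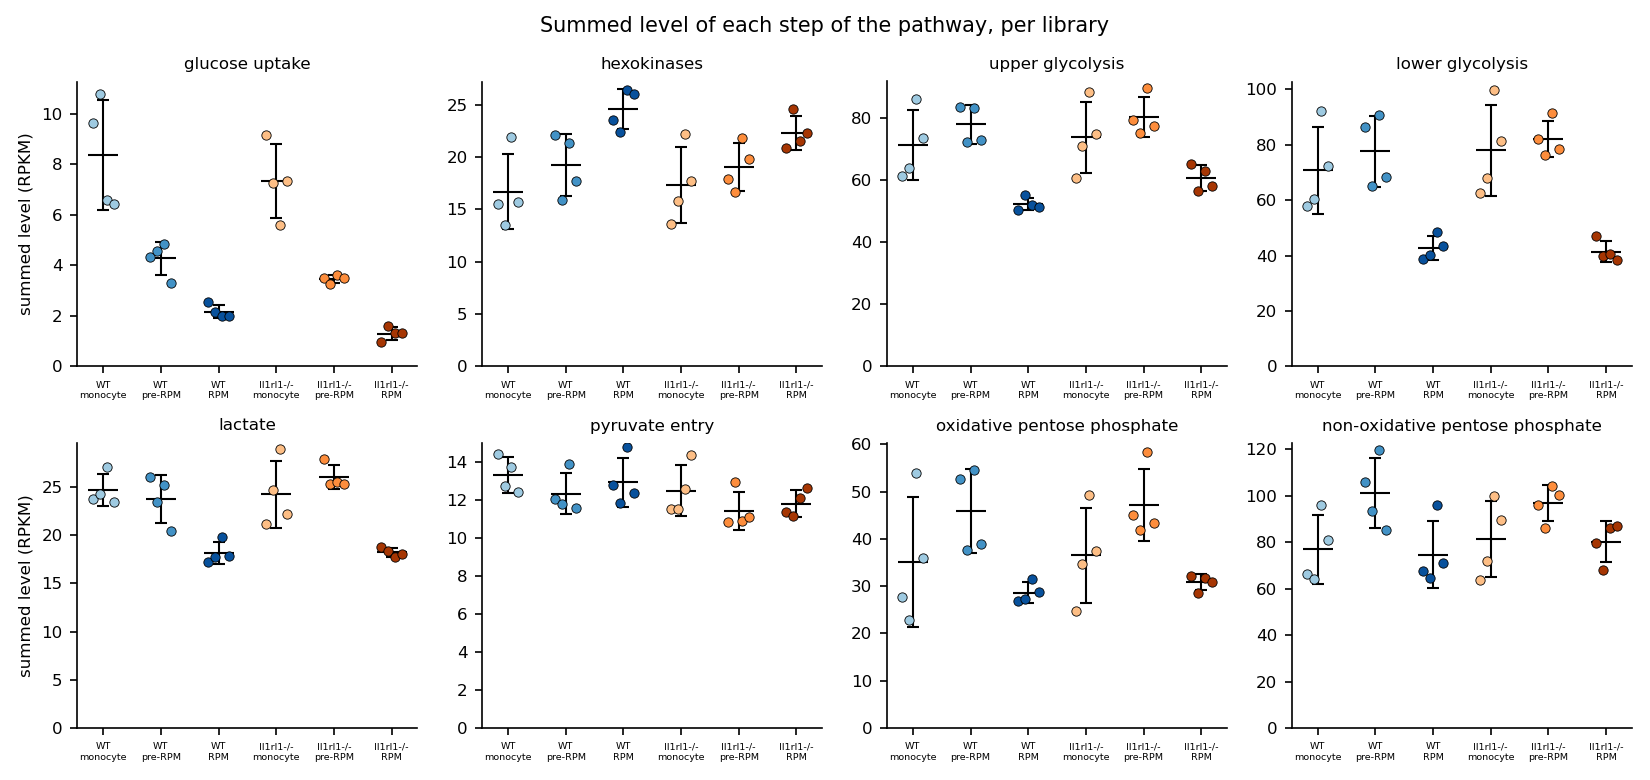
Each panel sums the RPKM of the genes of 1 step, with 1 point per library and bars for the mean ± SD of 4 libraries in each of 6 groups. Lower glycolysis goes from a mean of 77.7 RPKM in WT pre-RPMs to 42.7 RPKM in WT RPMs, while hexokinases and pyruvate entry are not lower in RPMs.

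From monocytes to pre-RPMs, 12.5% of the tested genes passed in WT and 15.6% in libraries labelled Il1rl1-/-, shares near those of all genes. In WT, Pfkfb4 rose (0.89, adjusted p = 0.0246) and Hk1, Pfkp and Slc2a3 fell (-0.42, adjusted p = 0.0479, -0.80, adjusted p = 0.00277, and -1.40, adjusted p = 0.0131), 4 of 32 tested, where 14.6% of all genes passed (5.79% higher, 8.85% lower). The same 4 passed in libraries labelled Il1rl1-/-, in the same directions, as did 9.85% of all genes tested in both genotypes (0.90 for Pfkfb4, -0.42 for Hk1, -0.81 for Pfkp and -2.06 for Slc2a3), and Slc16a1 also fell (-1.12, adjusted p = 0.0419), against a background of 17.1% (8.24% higher, 8.83% lower). The median log2 fold change of the tested genes was 0.01 in WT and -0.02 in libraries labelled Il1rl1-/-, beside 0.0069 and -0.0018 over all genes. At the thresholds of the study, edgeR called 0 genes in WT (13 at an unadjusted p under 0.05, as for 31.9% of all genes, and Slc2a3 with DESeq2) and Slc2a3 in libraries labelled Il1rl1-/- (backgrounds of 3.57%, with 0.316% higher and 3.25% lower, and 4.85%, with 0.974% higher and 3.88% lower).

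Of these calls, 3 of 4 in WT and 2 of 5 in libraries labelled Il1rl1-/- were lost without the monocyte libraries of mice 1 and 2, which had high NK and low monocyte marker sums, and 5.7% and 8.33% of all genes then passed. Without them, in WT, Slc2a3 was -0.69 (adjusted p = 0.0597), Hk1 -0.33 (adjusted p = 0.244) and Pfkfb4 0.51 (adjusted p = 0.0587), and Pfkp alone passed, at -0.67 (adjusted p = 0.0102). In libraries labelled Il1rl1-/-, Slc2a3, Pfkfb4 and Pfkp passed without them, at -1.70 (adjusted p = 4.25e-05), 0.58 (adjusted p = 0.00534) and -0.54 (adjusted p = 0.0102). The lost ones there were Slc16a1, at -1.10 (adjusted p = 0.165) against -1.12 with all libraries, and Hk1, at -0.39 (adjusted p = 0.0566) against -0.42. Leaving out 1 library at a time, the number of calls ran from 2 to 10 in WT and from 3 to 10 in libraries labelled Il1rl1-/-, in each case highest without the monocyte library of mouse 3. The share of all genes passing in the same fits ran from 6.69% to 25.8% and from 9.04% to 22.0%, and was also highest without that library (25.8% and 22.0%). The WT calls numbered 2 without the monocyte library of mouse 1 or the pre-RPM library of mouse 1, 2 or 4, and those labelled Il1rl1-/- numbered 3 without the pre-RPM library of mouse 4. In WT, Hk1 was lost without the monocyte or pre-RPM library of mouse 1, 2 or 4 (log2 -0.33 to -0.45 against -0.42 with all libraries, adjusted p of 0.0717 to 0.124), with the mouse as a block (-0.43, adjusted p = 0.0653), with RLE factors (-0.41, adjusted p = 0.0535) and with every gene of at least 1 count (-0.42, adjusted p = 0.0958). Pfkfb4 was lost without the monocyte library of mouse 1 or the pre-RPM library of mouse 1, 2 or 4 (log2 0.78 to 0.91 against 0.89 with all libraries, adjusted p of 0.0544 to 0.0683). In libraries labelled Il1rl1-/-, Slc16a1 was lost without any 1 library but the pre-RPMs of mouse 2 (log2 -0.92 to -1.20 against -1.12 with all libraries, adjusted p of 0.0565 to 0.112) and with DESeq2 (-1.15, adjusted p = 0.0757), and Hk1 without the pre-RPMs of mouse 2 or 4 (log2 -0.39 to -0.40 against -0.42 with all libraries, adjusted p of 0.0585 to 0.0631). With the mouse as a block, 10 genes passed in libraries labelled Il1rl1-/-, G6pdx, Hk2, Ldhb, Pgd and Taldo1 being the additional ones, and 22.8% of all genes passed in that fit. The same block gave 6 genes in WT, with Hk1 not among them, where 17.4% of all genes passed. In WT, 8 genes passed with every gene of at least 1 count (all genes, 8.47%) and 9 with all 24 libraries in 1 fit (all genes, 22.3%), and with the label Il1rl1-/- 9 passed with every gene (all genes, 8.53%). The shares with every gene are over 30658 and 30423 genes, against 11091 and 11196 past the filter on low counts. The added genes had too few counts for that filter, so these shares do not compare with those of the other fits.

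The comparison of monocytes with RPMs uses libraries of both steps and is given beside them. In WT, 16 of 31 tested genes fell and 3 rose (46% of all genes passed, 23.5% higher and 22.5% lower), and in libraries labelled Il1rl1-/- 18 of 32 fell and 3 rose (49.5%, 26% higher and 23.5% lower), with medians of -0.51 and -0.58. At the thresholds of the study, Hk1, Pfkp, Pkm, Slc16a3, Slc2a1 and Slc2a3 fell in both genotypes and Hk3 and Slc16a1 rose (backgrounds of 23.9% and 25.9%, with 9.26% lower and 11.9% higher in both). Slc2a3 had log2 fold changes of -1.40, -1.43 and -2.80 in WT for monocytes to pre-RPMs, pre-RPMs to RPMs and monocytes to RPMs. Pfkfb4 gave 0.89, -2.02 and -1.10, Hk2 gave 0.77, -1.32 and -0.52, and Slc16a1 gave -0.95, 2.98 and 2.07. For Hk2, the WT comparison of monocytes with RPMs did not pass, and the log2 fold change from monocytes to RPMs labelled Il1rl1-/- was -0.53 (adjusted p = 0.114). Without the RPM libraries of mice 3 and 4, 12 of 32 tested genes passed in WT, where 33.6% of all genes did. The 7 lost ones were Pfkfb3 -0.31 (adjusted p = 0.207), Pdk1 0.78 (adjusted p = 0.0719), Pgd -0.59 (adjusted p = 0.139), Rpia -0.50 (adjusted p = 0.115), Ldha -0.40 (adjusted p = 0.097), Pfkl -0.46 (adjusted p = 0.0762) and Pfkfb4 -1.02 (adjusted p = 0.0545), beside log2 fold changes with all libraries of -0.53, 0.85, -0.56, -0.50, -0.37, -0.47 and -1.10 in the same order. In libraries labelled Il1rl1-/- 16 of 32 then passed (all genes, 38.6%), and Pdha1 -0.38 (adjusted p = 0.121), Pgd -0.59 (adjusted p = 0.058), Rpia -0.59 (adjusted p = 0.0934), Pfkl -0.48 (adjusted p = 0.061) and Pgls -0.51 (adjusted p = 0.0611) were lost, beside -0.46, -0.58, -0.58, -0.59 and -0.69 with all libraries. Without the monocyte libraries of mice 1 and 2, 19 genes passed in WT (all genes, 42.7%), and Pfkfb3 -0.35 (adjusted p = 0.137), Pdk1 0.57 (adjusted p = 0.0717), Rpia -0.30 (adjusted p = 0.272) and Ldha -0.22 (adjusted p = 0.187) were lost, while G6pdx, Hk2, Ldhb and Pgk1 passed in their place. With the label Il1rl1-/-, 24 passed without them (all genes, 45.0%) and none was lost. Calls in WT were also lost on leaving out 1 library for Pfkfb3 (monocytes 1 or RPMs 3 or 4, log2 -0.41 to -0.47 against -0.53 with all libraries, adjusted p of 0.0571 to 0.069), Pgd (monocytes 3 or 4 or any RPM library, log2 -0.34 to -0.59 against -0.56 with all libraries, adjusted p of 0.0624 to 0.121, smallest without monocytes 3), Rpia (monocytes 1, 2 or 4 or RPMs 1, 2 or 3, log2 -0.42 to -0.53 against -0.50 with all libraries, adjusted p of 0.0533 to 0.0915) and Ldha (monocytes 1 or 2 or RPMs 1, 2 or 4, log2 -0.32 to -0.35 against -0.37 with all libraries, adjusted p of 0.0664 to 0.0859). With the label Il1rl1-/-, Rpia was lost without monocytes 2, 3 or 4 or RPMs 1 or 4 (log2 -0.47 to -0.61 against -0.58 with all libraries, adjusted p of 0.0621 to 0.11). DESeq2 also lost Rpia, in WT (-0.51, adjusted p = 0.0694) and with the label Il1rl1-/- (-0.60, adjusted p = 0.05645). When every gene of at least 1 count was tested, WT lost Rpia (-0.50, adjusted p = 0.0971), Ldha (-0.38, adjusted p = 0.0932) and Pfkl (-0.47, adjusted p = 0.056).

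Between genotypes, 1 gene of the list passed in 1 cell type. In monocytes, 0 of 32 tested genes passed with edgeR and 0 with DESeq2. Of all genes, 0.0614% passed with edgeR (0.0438% higher and 0.0175% lower) and 0.112% with DESeq2. With edgeR, 1, Pdk1, had an unadjusted p under 0.05, as did 3.59% of all genes (-0.61, adjusted p = 0.997). In RPMs, 0 of 30 passed with edgeR and 0 with DESeq2 (backgrounds of 0.233% with edgeR and 0.312% with DESeq2). With edgeR, 5 had an unadjusted p under 0.05 (7.27% of all genes), namely Slc2a1 (-0.61), Slc2a3 (-1.09), Hk1 (-0.48), Pdha1 (-0.33) and Aldoa (0.26). In pre-RPMs, Slc2a3 was lower in libraries labelled Il1rl1-/- (-0.87 ± 0.18, adjusted p = 0.0382), where 0.552% of all genes passed, and 3 genes had an unadjusted p under 0.05 (8.8% of all genes), Slc2a3, Pfkfb3 (0.57, adjusted p = 0.121) and Ldhb (0.44, adjusted p = 0.495). Pfkfb3 passed as well when every gene of at least 1 count was tested, at 0.58 (adjusted p = 0.00171), where 0.889% of all genes passed. With equal mouse numbers as a block, Pfkfb3 also passed, at 0.57 (adjusted p = 0.0234), where 1.36% of all genes did. The median log2 fold change over the tested genes was 0.04 for the monocyte comparison, -0.01 for pre-RPMs and 0.01 for RPMs.

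The 4 WT pre-RPM libraries read 12.6, 11.3, 10.8 and 11.7 CPM of Slc2a3, and the 4 labelled Il1rl1-/- read 5.22, 5.96, 7.17 and 7.11 CPM, with no overlap. The 6 NK cell markers summed to 103.7, 134, 84.8 and 65.5 CPM in the same WT libraries and to 16.9, 48.2, 28.97 and 12.9 CPM in those labelled Il1rl1-/-, also with no overlap. All 6 NK markers had counts in these libraries except Klrb1c, at 0 in mouse 4 labelled Il1rl1-/-, and Gzma was the most abundant, at up to 72.7 CPM. Ncr1, Gzma and Prf1 were lower in pre-RPMs labelled Il1rl1-/- (-2.04, adjusted p = 0.00388, -1.94, adjusted p = 0.012, and -2.03, adjusted p = 0.00762), and Eomes did not pass (-0.89, adjusted p = 0.37). In monocytes, where NK marker sums were the highest of all groups, Slc2a3 was also highest. The labels give Ly6G, CD11b and F4/80 for the sort. In its flow cytometry the study counted these populations among NK1.1-low cells, and whether NK1.1 was used in sorting these libraries is not given in the sources used here. The NK1.1 antibody clone the study lists is known not to stain NK cells of Balb/c mice. The study also lists an antibody against CD335, another surface protein of NK cells, and its use in sorting is not given either. The part of NK cells in the difference in Slc2a3 was not tested. The call was lost with DESeq2 (-0.86, adjusted p = 0.0821), with all 24 libraries in 1 fit (-0.87, adjusted p = 0.518) and without any 1 of 7 of the 8 libraries, WT mouse 3 being the exception (log2 -0.80 to -0.94 against -0.87 with all libraries, adjusted p of 0.0552 to 0.111). No interaction of genotype with a step between cell types passed for any tested gene of the list with edgeR or DESeq2. For monocytes to pre-RPMs and for pre-RPMs to RPMs, 0% and 0.107% of all genes passed with edgeR, and 0% and 0.281% with DESeq2. At an unadjusted p under 0.05 with edgeR there were 1, Pfkfb3, for monocytes to pre-RPMs (3.8% of all genes) and 0 for pre-RPMs to RPMs (7.52%). For Slc2a3, the interaction was -0.67 (adjusted p = 1) at the former step and -0.21 (adjusted p = 0.952) at the latter.

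**Figure D5:**
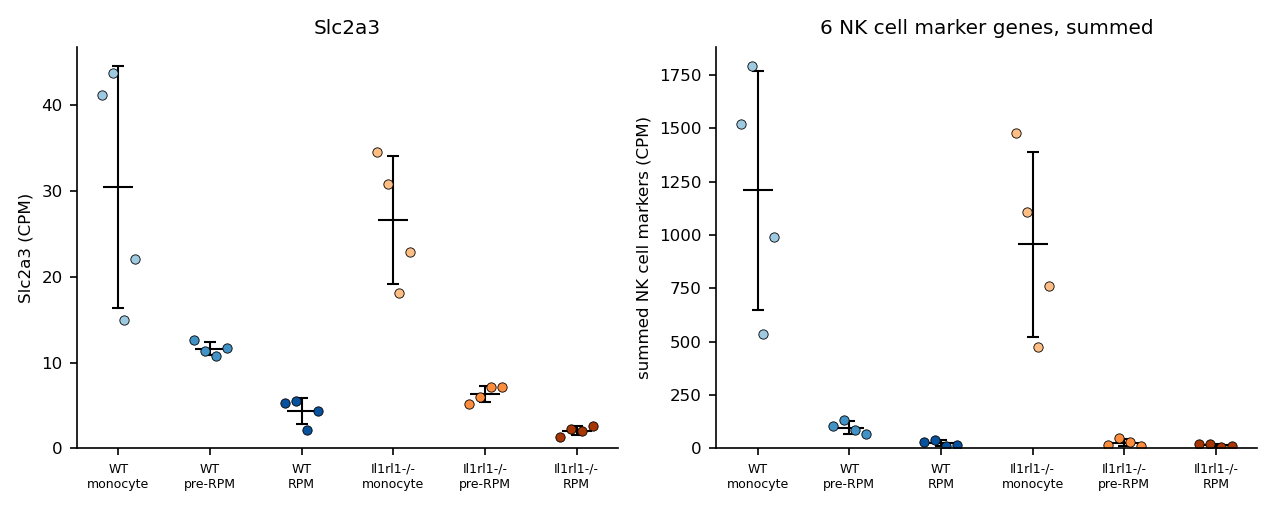
The left panel gives the CPM of Slc2a3 and the right panel the summed CPM of 6 NK cell marker genes, with 1 point per library and bars for the mean ± SD of 4 libraries in each of 6 groups. Both are highest in monocytes and, in pre-RPMs, lower in the libraries labelled Il1rl1-/- than in WT.

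Other genes around the same pathways were tested by list. Of 35 genes for other isoenzymes and sugar phosphate enzymes, 18 were tested from pre-RPMs to RPMs in each genotype, and 6 rose and 5 fell in WT and 6 rose and 6 fell in libraries labelled Il1rl1-/-, where 50.4% and 54.1% of all genes passed in either direction. Past the thresholds of the study in both genotypes, the glucose transporter Slc2a8 (1.80 and 1.82 in WT and labelled Il1rl1-/-, log2), the ADP-dependent glucokinase Adpgk (1.05 and 1.03) and the phosphoglucomutase Pgm1 (1.11 and 1.40) rose. The transporter Slc2a6 (-4.43 and -4.85), the muscle enolase Eno3 (-2.90 and -3.50), the hexose phosphate dehydrogenase of the endoplasmic reticulum H6pd (-1.02 and -1.26) and the ribokinase Rbks (-1.22 and -1.70) fell. Bpgm, which makes the bisphosphoglycerate that red cells use to tune hemoglobin, also rose (4.77 and 5.81). Bpgm read 4.903, 6.06, 31.5 and 7.88 CPM in WT pre-RPMs and 66.8, 51.7, 936 and 356 CPM in WT RPMs, and 4.98, 6.81, 3.58 and 4.304 and 92.8, 31.7, 408 and 647 CPM in libraries labelled Il1rl1-/-. RPM mice 3 and 4 of both genotypes, with the highest erythroid marker sums of the RPMs, and WT pre-RPM mouse 3, with the highest of the WT pre-RPMs (665 CPM), were also the highest of their groups for Bpgm. In pre-RPMs labelled Il1rl1-/- the highest erythroid sum (39.3 CPM) was in mouse 4 and the highest Bpgm in mouse 2. The part of erythroid RNA in it was not tested.

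Of 12 genes for pyruvate carriers, the pyruvate dehydrogenase complex and its regulators, 11 were tested, and 1 rose and 1 fell in each genotype, beside the same 50.4% and 54.1% of all genes for this and the next lists. Pyruvate carboxylase, Pcx, rose in both (2.77 and 3.04). Of the 7 glycogen genes, all tested, 3 rose and 3 fell in each genotype, with the phosphorylase Pygb up (1.82 and 1.83) and glycogenin, Gyg, down (-1.54 and -1.26). Of 13 regulators, 10 were tested and 2 rose and 4 fell in each genotype. Myc, a transcription factor that drives growth and glycolytic genes, rose (2.75 and 3.18), and Vhl, which marks hypoxia-inducible factors for degradation, fell (-1.25 and -1.07). Hif1a, the hypoxia-inducible factor itself and named here after its values were seen, also rose (0.56 and 0.59). Myc read 3.97, 2.898, 4.18 and 2.63 CPM in WT pre-RPMs and 24.04, 25.8, 17.4 and 28.1 CPM in WT RPMs. From WT monocytes to pre-RPMs, the urate transporter Slc2a9 (0.83, adjusted p = 0.0165) and the monocarboxylate transporter Slc16a7 (0.94, adjusted p = 0.0439) rose. Adpgk (-0.76, adjusted p = 0.049), the nucleotide precursor synthetase Prps2 (-0.80, adjusted p = 0.0321), the glycogen branching enzyme Gbe1 (-0.87, adjusted p = 0.0376), the hypoxia-inducible factor Epas1 (-1.23, adjusted p = 0.0293) and Myc (-1.53, adjusted p = 0.0135) fell. That made 2 up and 2 down of 15 tested isoenzymes, 0 of 10 pyruvate genes, 1 down of 7 glycogen genes and 2 down of 11 regulators, where 14.6% of all genes passed. None of these 7 WT calls passed without the monocyte libraries of mice 1 and 2, where Slc2a9 was 0.88 (adjusted p = 0.0523), Slc16a7 0.49 (adjusted p = 0.136), Adpgk -0.60 (adjusted p = 0.14), Prps2 -0.71 (adjusted p = 0.117), Gbe1 -0.52 (adjusted p = 0.315), Epas1 -0.96 (adjusted p = 0.244) and Myc -0.90 (adjusted p = 0.135). Slc16a7 read 8.14, 4.61, 14.05 and 13.8 CPM in WT monocytes. With the label Il1rl1-/-, Slc2a9 (0.35, adjusted p = 0.298) and Slc16a7 (0.62, adjusted p = 0.0815) did not pass. Adpgk (-1.08, adjusted p = 0.000479) was the 1 of 16 tested isoenzymes past the test there, the phosphatase of pyruvate dehydrogenase Pdp1 (-1.12, adjusted p = 0.033) fell among 10 pyruvate genes, Gys1 (-0.91, adjusted p = 0.0285) and Pygb (-0.66, adjusted p = 0.0223) among 7 glycogen genes and Myc (-1.95, adjusted p = 0.00263) among 10 regulators, of which Txnip (0.50, adjusted p = 0.0185) rose, where 17.1% of all genes passed. Without the 2 monocyte libraries, Adpgk -1.13 (adjusted p = 6.67e-05), Pygb -0.52 (adjusted p = 0.0265) and Myc -1.64 (adjusted p = 0.00639) passed, and Pdp1 -0.76 (adjusted p = 0.172), Gys1 -0.99 (adjusted p = 0.0561) and Txnip 0.29 (adjusted p = 0.121) did not. Between genotypes, none of these 4 lists had a gene past the test in any cell type with edgeR.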

How the data were processed

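The 24 RNA libraries were made with a stranded total RNA kit (SMARTer); the other 24 samples of the series were not used here. Read trimming by the authors used cutadapt (2.5 in the methods, 2.8 in the submitters' processing notes), alignment to GRCm38 used STAR 2.5.1, and featureCounts 1.6.2 assigned fragments to gene names (Ensembl 95, strand-specific, multi-mapping reads not counted). The deposited values are raw counts, 1 column per library. Gm42418, the most counted gene, took 24.4% to 38.8% of counts and mitochondrial genes 5.49% to 10.6%.

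Groups follow the labels. Counts of all genes were tested with edgeR 4.0.16 (quasi-likelihood, TMM, filterByExpr, Benjamini-Hochberg) within the groups compared, under R 4.3.3. The edgeR fit of 2 groups was tried on counts simulated from WT pre-RPMs and RPMs, a check that covers no other fit. DESeq2 1.42.0, RLE factors, other filters, all libraries in 1 fit, a mouse block, Gm42418 and mitochondrial genes left out, and each library left out were alternatives. Isoenzyme shares and summed RPKM are descriptions with no test. Values in every library are given for genes past the thresholds of the study in both genotypes, for genes past the test between genotypes and for the most abundant gene of each role, and other genes are counted or given by means. The genes, lists and tests were chosen with earlier results of these data known. Leaving out monocyte mice 1 and 2 or RPM mice 3 and 4 was added after seeing the data.

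The labels give each mouse's number in every cell type, which was taken as pairing libraries within a genotype. Deviations from group means, over 12715 genes, correlated between libraries of the same mouse at 0.129 or more for monocytes and pre-RPMs labelled Il1rl1-/-, and at -0.0329 or more for WT. The same number also correlated between genotypes, at 0.12 or more in monocytes, 0.151 or more in RPMs and 0.0432 or more in pre-RPMs. The block was therefore also fitted there, although equal numbers are then different mice. Among 4 libraries each, the best match across genotypes bore the same number for only 1 RPM library and 2 monocyte libraries, but for all 4 pre-RPM libraries. The 36 pairs of replicates all differed by more than sampling noise.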

Additional observations from a re-analysis of the deposited data

Results flagged for a closer look

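Dixon's test at its 95% level was applied to each gene in each group of 4 libraries, and 9 of 191 tests found a library far from the other 3 (4.71%, where chance gives about 1 in 20). Pfkp in WT RPMs was lowest in mouse 3, at 8.05 CPM, with the other 3 libraries at 15.8 to 18.1 CPM. Pfkfb3 in WT pre-RPMs was lowest in mouse 1, at 17.04 CPM, with the other 3 libraries at 26.8 to 28.2 CPM. Pfkfb3 in RPMs labelled Il1rl1-/- was highest in mouse 1, at 33.997 CPM, with the other 3 libraries at 23.78 to 24.8 CPM. Gapdh in WT pre-RPMs was highest in mouse 3, at 64.2 CPM, with the other 3 libraries at 43.7 to 46.6 CPM. Pgk1 in WT pre-RPMs was highest in mouse 1, at 20.5 CPM, with the other 3 libraries at 13.1 to 14.02 CPM. Pgam1 in WT monocytes was lowest in mouse 2, at 3.01 CPM, with the other 3 libraries at 5.53 to 5.76 CPM. Slc16a3 in RPMs labelled Il1rl1-/- was lowest in mouse 2, at 0.821 CPM, with the other 3 libraries at 1.93 to 2.202 CPM. G6pdx in RPMs labelled Il1rl1-/- was lowest in mouse 2, at 57.1 CPM, with the other 3 libraries at 65.5 to 67.2 CPM. Rpe in WT pre-RPMs was lowest in mouse 1, at 13.1 CPM, with the other 3 libraries at 17.6 to 18.2 CPM. RPM mouse 3 of WT had the highest erythroid marker sum (24661 CPM), and WT pre-RPM mouse 3 the highest of the pre-RPMs (665 CPM).

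For Pfkfb3, every WT pre-RPM library lay below every WT monocyte library while in each mouse labelled Il1rl1-/- the pre-RPM library lay above the monocyte library, with a difference between the changes of 0.623 on the log2 scale. That sign pattern is no test. The interaction fit of edgeR gave 0.61 ± 0.22 (adjusted p = 1), which does not pass. Pfkfb3 read 37.5, 34.5, 28.3 and 29.2 CPM in WT monocytes and 17.04, 28.2, 26.8 and 27.2 CPM in WT pre-RPMs, and 25.95, 29.3, 35.9 and 34.3 and 32.99, 33.9, 36.7 and 43.2 CPM in libraries labelled Il1rl1-/-.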

How the results depend on the processing

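Over the alternatives, 544 of 579 values for whole comparisons kept their direction and stayed within 1.5 times, or 1 SD, of the reported value, and 1405 of 1513 single-gene values kept their side of the threshold, while the other 108 lost it and none changed sign. On leaving out 1 library, the calls from pre-RPMs to RPMs numbered 18 to 22 in WT and 21 to 22 in libraries labelled Il1rl1-/-, where 45.5% to 48.5% and 50.6% to 52.4% of all genes passed. From WT monocytes to pre-RPMs, 8 genes passed with every gene of at least 1 count (all genes, 8.47%) and 9 with all 24 libraries in 1 fit (22.3%). Without monocyte mice 1 and 2, 1 passed (5.7%), and on leaving out 1 library 2 to 10 did (6.69% to 25.8%). At the thresholds of the study, Slc2a3 made 1 with DESeq2, with every gene, with all 24 libraries and with the mouse block. Leaving out 1 library gave 0 to 3 at those thresholds, where 1.47% to 9.11% of all genes passed. The libraries labelled Il1rl1-/- gave 9 with every gene (all genes, 8.53%), 10 with the mouse block (22.8%) and 3 without monocyte mice 1 and 2 (8.33%). Leaving out 1 library gave 3 to 10 there (9.04% to 22.0%), and 1 to 4 at the thresholds of the study (2.94% to 7.17%). WT monocytes to RPMs gave 12 without RPM mice 3 and 4 (all genes, 33.6%). Between genotypes in pre-RPMs, DESeq2 and all 24 libraries in 1 fit gave 0, where 0.473% and 0.132% of all genes passed. With every gene and with equal mouse numbers as a block, 2 passed (adding Pfkfb3), beside 0.889% and 1.36% of all genes. Equal numbers join different mice in that block. Leaving out 1 library gave 0 to 1 (all genes, 0.337% to 0.622%). With the pairing by mouse as a block, no other count moved by more than 1.5 times. From raw counts the Ldhb share changed by -14.03 percentage points in WT and -18.18 in libraries labelled Il1rl1-/-, against -24.96 and -31.11 per kilobase. The Aldoc share in WT changed by -0.203 points, and by 0.0571 without WT RPM replicate 3 (range -0.396 to 0.0571). The summed pyruvate entry level in WT changed by 0.600 RPKM, and by -0.0150 without WT RPM replicate 3 (range -0.0150 to 1.13). The causes were not tested. Counts under about 10 per library limit Ldhb, Slc16a1 and Slc16a3 in the groups where they are low, and Fbp1 and Aldoc throughout. Low counts in RPM libraries also limit Slc2a3 and Pfkm. In RPMs labelled Il1rl1-/-, Slc2a3 had 6, 14, 9 and 12 counts and Pfkm 15, 2, 13 and 6. In WT RPMs, Slc2a3 had 25, 27, 8 and 19 counts and Pfkm 8, 11, 7 and 12.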
